A study of Homo sapiens with 11 samples.

Results

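The genes described here encode the SR proteins, the heterogeneous nuclear ribonucleoproteins (hnRNPs), the SF3A, SF3B and U2AF splicing factors and the proteins of the small nuclear ribonucleoprotein particles (snRNPs). They were taken by symbol: every line of the deposited gene table whose name starts with SFRS, SRSF, HNRNP, HNRP, SF3A, SF3B, U2AF or SNRP, which gave 68 of 20500 entries. Of these, 21 are called SR protein genes here, all under the older SFRS names, and 9 of them now have names other than SRSF. A further 23 are hnRNP genes, 12 are SF3A, SF3B and U2AF genes and 12 are SNRP genes. The rule uses symbols and no measured value. The cells were 786-0, an established line of human clear cell renal carcinoma. The 5 everolimus samples had been kept for 4 h with everolimus in DMSO, at a dose written in the labels as 10um and read here as 10 µM, and the 6 control samples for 4 h with DMSO vehicle. Everolimus, a relative of rapamycin, blocks mTOR complex 1 by way of the protein made from FKBP1A. The question the design puts is which transcripts differ between everolimus and vehicle after that time.

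Splicing removes introns from transcripts on the spliceosome, a machine of snRNPs that assembles anew on each intron. The U1 particle marks the 5′ splice site, U2AF the 3′ splice site, and the SF3A and SF3B complexes anchor the U2 particle at the branch point. The Sm proteins, products of SNRP genes, form the ring around the RNA of most snRNPs. SR proteins bind exonic enhancers and help these factors to settle, and hnRNPs coat nascent RNA and often oppose them. Many SR and hnRNP genes make an additional transcript with a premature stop, and a table of 1 value per gene does not separate such isoforms.

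Libraries were made from polyadenylated RNA with a stranded kit and held 29760945 to 52522802 estimated reads with everolimus and 14230651 to 36828229 in the controls. Levels are in scaled estimated read counts (units), in which each library's upper quartile of values above 0 was about 1000 and 1 read was worth 0.307 to 1.05 units. The share of low values that were whole reads put the libraries into 2 sets, the first holding everolimus 1 and 2 with controls 1 to 3 and the second everolimus 3 to 5 with controls 4 to 6. The labels name no batch. Of 7 renal carcinoma markers, 6 were above the filter, and all 6 passed in limma, against 55.2% of all genes. With everolimus 4 were higher (PAX8, VIM, MET and NNMT) and 2 lower (PAX2 and CDH6). PAX8 stood at 3788 ± 107 units under everolimus and 3189 ± 78.7 in the controls (SD, n = 5 and 6). CDH6 changed the most, at 1217 ± 171 and 2298 ± 322 units (log2 fold change -0.92, limma adjusted p = 3.3e-06). PAX2 was at -0.38 (limma adjusted p = 0.000711), and CA9 stood at 0.557 ± 0.431 and 1.41 ± 1.24 units. Of 11 markers of other cell types, 3 were above the filter (CD68, COL1A1 and SYP) and did not pass the test. PTPRC, CD3E, PECAM1, VWF, COL3A1, ALB, INS and HBB lay between 0 and 1.74 units in every library. In bulk RNA, fewer cells that express a gene and less of its RNA per cell cannot be told apart.

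Stretches of 200 bases before the gene start are shown for 4 genes that passed the test in opposite directions, SFRS18, SFRS8 and HNRNPUL2, lower with everolimus, and HNRNPAB, higher. They are RefSeq sequences on GRCh38.p14, printed 5′ to 3′ on the strand of the gene. Capitals mark matches, on either strand, to the CCAAT box, the TATAAA box, the E-box CACGTG, the ETS factor core CCGGAAG or the GC box GGGCGG. No matches of different motifs overlapped in these stretches.
SFRS18 (PNISR, chr6:99425309-99425508, minus strand): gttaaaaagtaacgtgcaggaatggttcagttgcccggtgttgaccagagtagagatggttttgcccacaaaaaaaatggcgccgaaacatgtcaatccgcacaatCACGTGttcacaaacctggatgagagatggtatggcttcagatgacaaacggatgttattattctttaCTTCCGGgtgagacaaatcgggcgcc
SFRS8 (SFSWAP, chr12:131710890-131711089, plus strand): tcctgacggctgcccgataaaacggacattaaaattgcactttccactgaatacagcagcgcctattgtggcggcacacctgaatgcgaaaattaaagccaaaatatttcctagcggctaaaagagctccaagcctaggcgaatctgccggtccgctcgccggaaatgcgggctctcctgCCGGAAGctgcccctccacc
HNRNPAB (HNRNPAB, chr5:178204333-178204532, plus strand): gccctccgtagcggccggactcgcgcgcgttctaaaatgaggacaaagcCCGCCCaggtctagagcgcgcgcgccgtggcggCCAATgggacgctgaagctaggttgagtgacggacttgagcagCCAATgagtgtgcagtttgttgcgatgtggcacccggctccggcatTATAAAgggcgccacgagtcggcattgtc
HNRNPUL2 (HNRNPUL2, chr11:62727458-62727657, minus strand): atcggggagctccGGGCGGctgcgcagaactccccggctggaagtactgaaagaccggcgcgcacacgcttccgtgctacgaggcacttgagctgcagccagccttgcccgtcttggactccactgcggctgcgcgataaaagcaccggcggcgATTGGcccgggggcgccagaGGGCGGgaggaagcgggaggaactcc
The SFRS18 and SFRS8 stretches hold CCGGAAG, which SFRS18 carries on the opposite strand, and neither has a CCAAT. The HNRNPAB stretch holds CCAAT in a pair of places and a TATAAA close to the start, and the HNRNPUL2 stretch holds CCAAT on the opposite strand. SFRS18 also has a TATAAA match within 250 bases before its start, upstream of the printed bases. RefSeq promoters matched 61 of the 68 genes. HNRNPA1, HNRNPA3P1, SF3B3, SFRS2, SFRS15, SFRS16 and SNRPD1 had no entry. Within 250 bases before the start, CCAAT lay in 14 of 21 hnRNP promoters (66.7%), in 3 of 18 SR promoters (16.7%) and in 34.5% of 15842 protein-coding promoters. CCGGAAG lay in 7 of 18 SR promoters (38.9%), 7 of 11 SF3A, SF3B and U2AF promoters (63.6%), 7 of 11 SNRP promoters (63.6%), 3 of 21 hnRNP promoters (14.3%) and 11.8% of protein-coding promoters. By call, it lay in 8 of 17 promoters of genes called lower (47.1%), 1 of 3 called higher and 15 of 39 not called (38.5%). A start of C followed by 4 pyrimidines, the shape of the tract in mRNAs whose translation depends on mTOR, was found in 4 of 61 promoters (6.56%), against 4.6% of protein-coding promoters. These matches are descriptions of the letters and were not tested.

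Of the 68 genes, 66 reached a value of at least 10 units in at least 5 libraries and were tested. The 2 others were HNRNPCL1, at 0 in every library, and SFRS13B (SRSF12), between 0 and 2.9 units. After 4 h with everolimus, 20 of the 66 were lower and 3 were higher in limma at an adjusted p under 0.05, and 43 did not pass. Over all 12668 genes tested, 27.4% passed as lower and 27.8% as higher, against 30.3% and 4.55% of these splicing genes. In either direction 34.8% of them passed, against 55.2% of all genes. The share lower was thus near that of all genes with the values as deposited, and the share higher was below it. The median log2 fold change was -0.05 over the 66 and -0.01 over all genes. The changes were small. Called falls of at least 1.2-fold were found for 7 genes (10.6%, against 16.1% of all genes), 6 of them SR protein genes and the other SF3B1, and 0 genes had a called rise of that size in limma (against 17.4% of all genes). In 13 genes every everolimus library lay below every control library (19.7%, against 17.6% of all genes), and in 2 genes every one lay above (3.03%, against 20.3%). Quantile normalization gave 1 higher and 32 lower (1.52% and 48.5%, against 25.6% and 31.9% of all genes), and thinning to equal depth gave 3 higher and 27 lower (4.55% and 40.9%, against 22.2% and 30.5%). Under these scalings the share lower was above that of all genes. Whether the samples of a group were separate cultures is not stated in the labels, so the p-values cover only sample-to-sample spread, possibly technical.

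**Figure D1:**
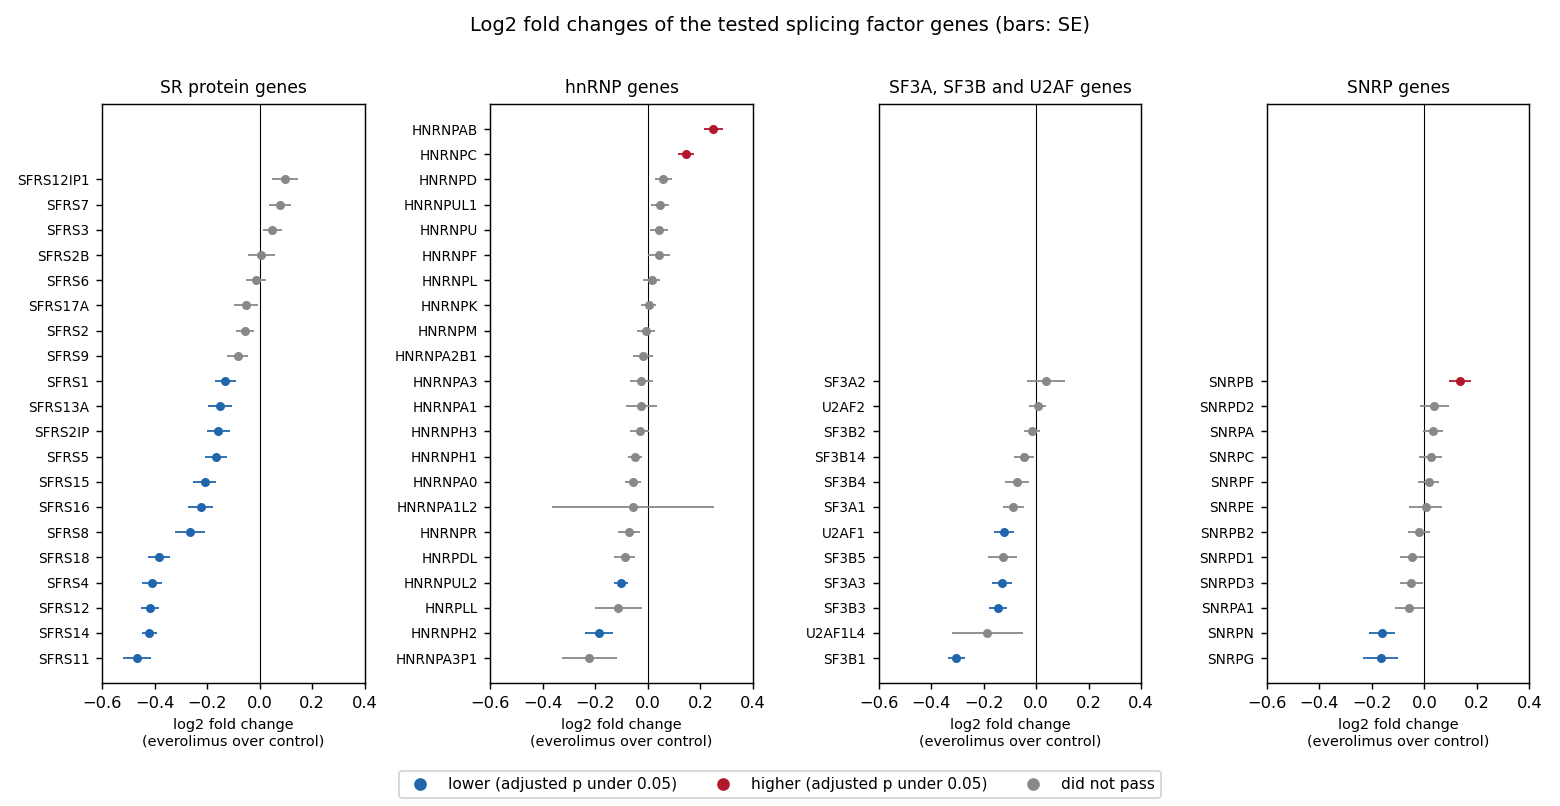
Log2 fold change, everolimus over control, of each of the 66 tested genes in 4 panels by class; points are limma estimates, bars are SE, and colour gives the call. The SR protein panel runs from -0.47 for SFRS11 to 0.10 for SFRS12IP1 with 12 genes called lower, while in the hnRNP panel 18 of 22 genes did not pass.

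The SR protein genes carried most of the falls. Of 20 tested, 12 were lower (60.0%) and 0 were higher in limma, against 27.4% and 27.8% of all genes. At an unadjusted p under 0.05, 13 were lower and 0 higher (all genes: 30.0% lower and 29.9% higher). The median log2 fold change of the 20 was -0.15, and it was -0.15 in each library set taken alone. In 9 of the 20, every everolimus library lay below every control library (45.0%, against 17.6% of all genes). The lines named SFRS hold both SR proteins in the strict sense, now named SRSF, and other serine- and arginine-rich proteins that have since been renamed. That division was made after the values were seen. Of 11 SRSF genes, 5 were lower (45.5%) with a median of -0.08. Of 9 renamed genes, 7 were lower (77.8%) with a median of -0.22.

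SFRS11 (SRSF11), an SR-rich protein that contacts U2AF, fell the most. Its values were 3378, 3558, 3375, 3059.7 and 3295 units in the everolimus libraries, against 4126 to 5100.0 with a median of 4633 in the controls. Every treated library lay below the lowest control, and the controls were more widely spread than the treated libraries. The means were 3333 ± 181 with everolimus and 4614 ± 357 in the controls (SD, n = 5 and 6), a log2 fold change of -0.47 ± 0.05 (SE, limma adjusted p = 3.72e-06). SFRS14 (SUGP2), a protein with SURP and G-patch domains, had 1758, 1717, 1727, 1720.2 and 1631 units with everolimus, against 2260.1 to 2336 with a median of 2273 in the controls. Both groups were tight and lay far apart, and its log2 fold change was -0.42 ± 0.03 (SE, limma adjusted p = 1.45e-08). SFRS12 (SREK1), which binds other SR proteins and modulates their activity, had 753, 728, 767, 714 and 735 units with everolimus, against 949.6 to 1036 with a median of 991 in the controls. Again no libraries of the groups overlapped, with a log2 fold change of -0.42 ± 0.03 (SE, limma adjusted p = 1.3e-07). On the log2(value + 1) scale these are changes of -27.7%, -25.3% and -25.1%.

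Other SR genes lay close behind, named here after their values were seen. SFRS4 (SRSF4), a long SR protein, had 1818, 1965, 1849, 1861 and 2037 units with everolimus and 2427 to 2615 with a median of 2530.5 in the controls. SFRS18 (PNISR), an SR-rich partner of pinin, had 1248, 1274, 1295, 1379 and 1416 units with everolimus and 1654 to 1864 with a median of 1719 in the controls. Neither gene's groups overlapped, and the log2 fold changes were -0.41 and -0.38 (limma adjusted p = 2.62e-07 and 2.3e-06). SFRS8 (SFSWAP), the human counterpart of the Drosophila suppressor of white apricot, had 633, 641, 637, 752 and 723 units with everolimus and 771 to 912 with a median of 803 in the controls. The log2 fold change of SFRS8 was -0.27 (limma adjusted p = 0.00113), and everolimus 4 and 5 lay nearer to the controls than the other 3. SFRS16 (CLASRP), a partner of the kinase CLK4, fell by 0.22 on the log2 scale, and SFRS15 (SCAF4), which binds the tail of RNA polymerase II, by 0.21. Smaller falls were found for SFRS5 (SRSF5; -0.17), SFRS2IP (SCAF11; -0.16) and SFRS13A (SRSF10; -0.15). Within a single library set some of these calls were lost, that of SFRS16 in the first set and those of SFRS15, SFRS5, SFRS2IP and SFRS13A in the second (limma adjusted p = 0.0587 to 0.22), all with the same sign.

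SFRS1 (SRSF1), the most studied SR protein and the gene of the class with the highest mean in units, which are not corrected for length, had 7142, 7179, 7506, 6981 and 6957 units with everolimus, against 7209 to 8383 with a median of 7904 in the controls. The groups overlapped, since everolimus 3 lay above the lowest control. Its log2 fold change was -0.13 ± 0.04 (SE, limma adjusted p = 0.0114), and within the first library set the call was lost (-0.11, limma adjusted p = 0.138). The 8 SR genes that did not pass ranged from -0.08 for SFRS9 (SRSF9) to 0.10 for SFRS12IP1 (SREK1IP1). SFRS3 (SRSF3), which also adapts mRNA for export, had 6524, 6704, 6627, 5939 and 6282 units with everolimus and 5963 to 6432 with a median of 6207 in the controls. The groups of SFRS3 overlapped over most of their range, and its log2 fold change was 0.05 ± 0.04 (SE, limma adjusted p = 0.28). SFRS7 (SRSF7), another export adaptor, stood at 0.08 ± 0.04 (SE, limma adjusted p = 0.143). SFRS7 passed as higher without everolimus 4 (0.11, limma adjusted p = 0.0348) and within the first library set (0.13, limma adjusted p = 0.0411). SFRS9 passed as lower without everolimus 2 or control 2 (limma adjusted p = 0.0165 and 0.0417). It also did within the second library set (-0.15, limma adjusted p = 0.0346). SFRS2 (SRSF2) and SFRS6 (SRSF6) stood at -0.06 and -0.01. SFRS2B (SRSF8) is a retrogene copy of SRSF2, so reads could be shared between them, and its log2 fold change was 0.01.

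**Figure D2:**
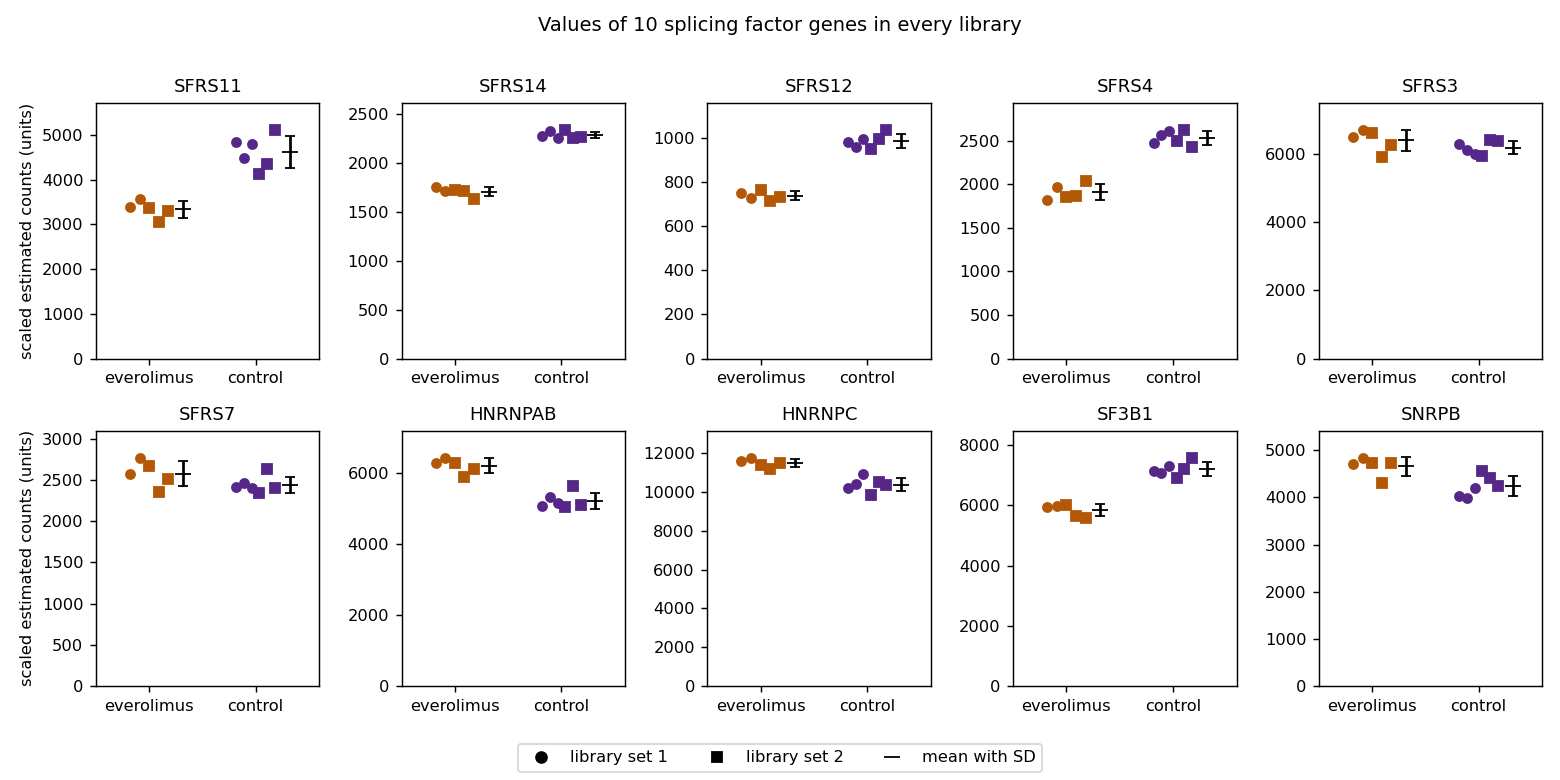
Scaled estimated counts (units, linear axes from 0) of 10 genes in each of 5 everolimus and 6 control libraries; circles are the first library set, squares the second, and the bars beside them are mean and SD. The everolimus points of SFRS11, SFRS14, SFRS12, SFRS4 and SF3B1 lie below all control points, those of HNRNPAB and HNRNPC above, and those of SFRS3, SFRS7 and SNRPB overlap the controls.

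The hnRNP genes stayed closer to the controls. Of 22 tested, 2 were higher and 2 were lower (9.09% each, against 27.8% and 27.4% of all genes). The median log2 fold change of the 22 was -0.03. HNRNPAB, an A/B-type hnRNP that binds RNA in nucleus and cytoplasm, had 6282, 6407, 6274, 5872 and 6112 units with everolimus, against 5035 to 5621 with a median of 5122 in the controls. Every treated library lay above the highest control, with a log2 fold change of 0.25 ± 0.04 (SE, limma adjusted p = 3.32e-05). HNRNPC, which binds uridine tracts and keeps cryptic exons out of mRNA, had 11595, 11738, 11401, 11181 and 11491 units with everolimus, against 9832 to 10928 with a median of 10390.0 in the controls. Its groups did not overlap either, and the log2 fold change was 0.15 ± 0.03 (SE, limma adjusted p = 0.000892). With quantile normalization the HNRNPC value was 0.03 and did not pass (limma adjusted p = 0.32).

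The hnRNP genes that fell were HNRNPH2 and HNRNPUL2. HNRNPH2, which binds runs of G, had 1745, 1784, 1744, 1538 and 1654 units with everolimus, against 1799 to 2111 with a median of 1874 in the controls. All treated libraries lay below the lowest control, everolimus 2 only just, and the log2 fold change was -0.19 ± 0.05 (SE, limma adjusted p = 0.00836). Within the first library set it was -0.14 and did not pass (limma adjusted p = 0.0869). HNRNPUL2, an hnRNP U-like protein with a part in DNA damage signalling, had 2075, 2028, 2124, 2137 and 2088 units with everolimus, against 2204 to 2281 with a median of 2254 in the controls. The groups were tight and did not overlap, although the log2 fold change was only -0.10 ± 0.03 (SE, limma adjusted p = 0.00429), and the call was lost within the second library set (-0.09, limma adjusted p = 0.18). HNRNPA2B1, a core hnRNP and the member with the highest mean, had 28476, 28769, 28276, 26290.1 and 27001 units with everolimus, against 25971 to 29481 with a median of 28417 in the controls. The groups of HNRNPA2B1 covered nearly the same range, and its log2 fold change was -0.02 ± 0.04 (SE, limma adjusted p = 0.694). The other genes that did not pass lay between -0.22 for HNRNPA3P1, a pseudogene of HNRNPA3 at 42.7 ± 3.07 units with everolimus and 50.3 ± 6.83 in the controls (SD, n = 5 and 6), and 0.06 for HNRNPD, which passed without control 5 (0.08, limma adjusted p = 0.0472). HNRPDL (HNRNPDL), at -0.09, passed as lower without control 4 or everolimus 2 (limma adjusted p = 0.0108 and 0.0483). HNRNPR, at -0.07, passed as lower without control 4 and within the first library set (limma adjusted p = 0.0175 and 0.0403). The hnRNP calls moved most with scaling. Quantile normalization gave 1 higher and 11 lower of 22 (54.5% called, against 57.5% of all genes). Libraries thinned to equal depth gave 2 higher and 5 lower (31.8% called, against 52.7% of all genes). Over all genes, 31.9% and 30.5% were lower under these scalings. HNRNPK, a poly(C)-binding hnRNP, stood at 0.00 ± 0.03 (SE), and at -0.10 with quantile normalization (limma adjusted p = 0.0112).

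**Figure D3:**
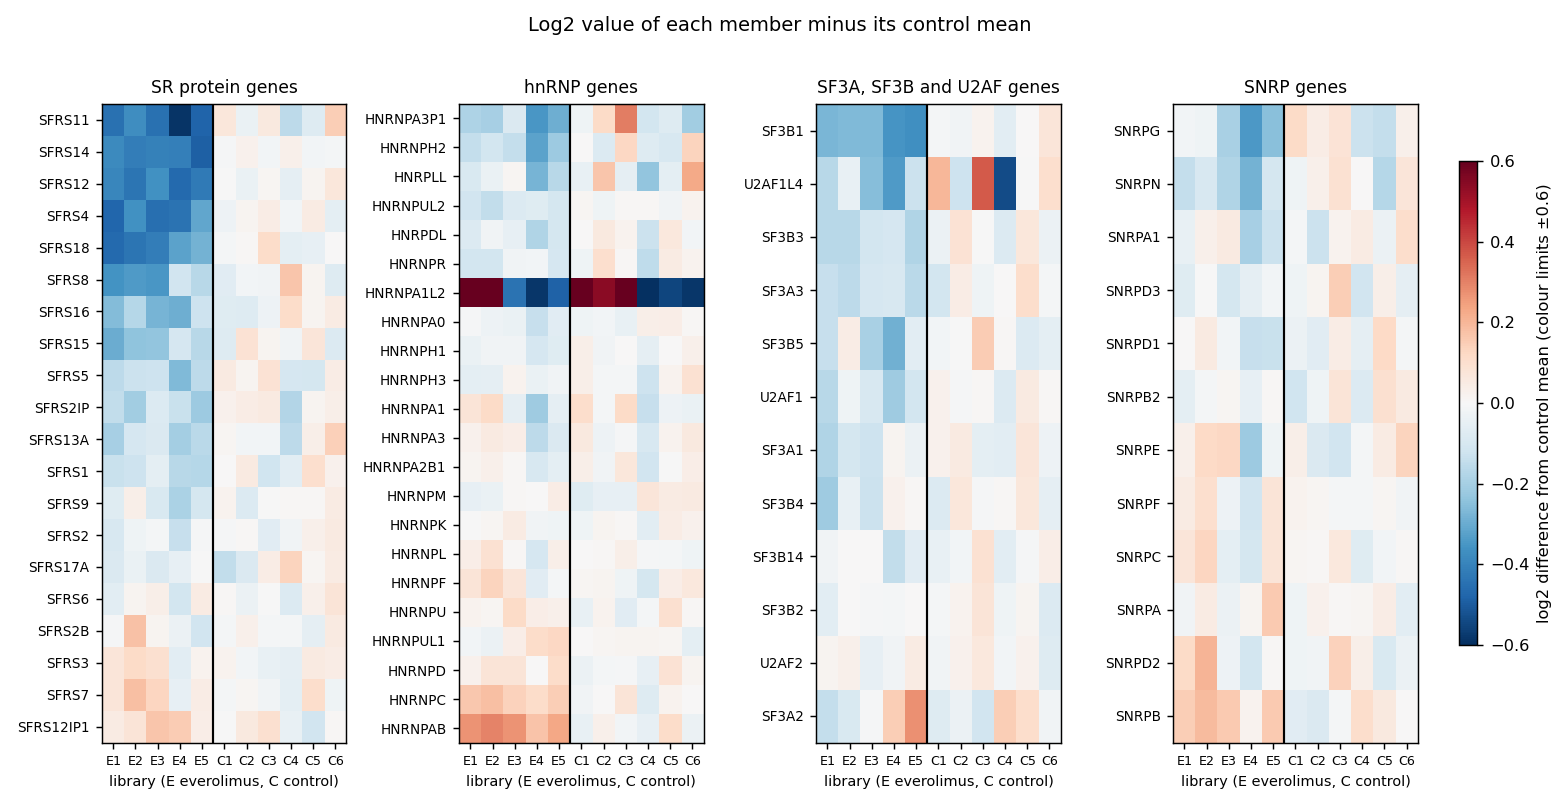
Log2 value of each tested gene in each library minus the gene's control mean, a row per gene and a column per library, everolimus (E) left of the line and control (C) right of it, with colour limits at ±0.6. The SR genes with the largest falls, at the top of their panel, are blue across all 5 everolimus columns, and HNRNPA1L2 changes colour within each group.

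SF3B1 was the gene of the U2 branch point factors that fell the most. It encodes the largest subunit of SF3B, which clamps the branch point helix and is the target of several splicing inhibitors. Its values were 5952, 5986, 5999, 5636 and 5589 units with everolimus, against 6900.3 to 7567 with a median of 7177 in the controls. The groups lay well apart, with means of 5832 ± 202 and 7204 ± 226 units (SD, n = 5 and 6) and a log2 fold change of -0.30 ± 0.03 (SE, limma adjusted p = 1.77e-06). Of the 12 genes of this class, 4 were lower (33.3%) and 0 were higher in limma, against 27.4% and 27.8% of all genes. The share lower was thus near that of all genes. At an unadjusted p under 0.05, 6 were lower and 0 higher (all genes: 30.0% lower and 29.9% higher). The median of the class was -0.10. SF3B3, a scaffold subunit beside SF3B1, had 3926, 3921, 4087, 4104 and 3887 units with everolimus, against 4156 to 4672 with a median of 4351 in the controls. The groups of SF3B3 were separated by a narrow gap, at -0.14 ± 0.03 (SE, limma adjusted p = 0.00279), and the call was lost within the second library set (-0.11, limma adjusted p = 0.112). SF3A3, a subunit of SF3A, had 2164, 2135, 2224, 2229.7 and 2132 units with everolimus, against 2206 to 2559 with a median of 2372 in the controls. Here everolimus 3 and 4 lay above the lowest control, and the log2 fold change was -0.13 ± 0.04 (SE, limma adjusted p = 0.00759). Its call was lost within the first library set (-0.12, limma adjusted p = 0.0957).

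U2AF1, the small U2AF subunit that reads the AG of the 3′ splice site, passed at -0.12 ± 0.04 (SE, limma adjusted p = 0.0116) with overlapping groups, and in neither library set alone (limma adjusted p = 0.125 and 0.0815). U2AF2, the large subunit that binds the pyrimidine tract, was at 3871 ± 106 units with everolimus and 3856 ± 132 in the controls (SD, n = 5 and 6). The difference between these means was smaller than either SD, at a log2 fold change of 0.01 ± 0.03 (SE, limma adjusted p = 0.895). SF3B2 was at -0.02, SF3B14 (SF3B6), which touches the branch point adenosine, at -0.05, and SF3B4 at -0.07, and these did not pass. SF3A1 at -0.09 and SF3B5 at -0.13 did not pass either (limma adjusted p = 0.0826 and 0.0697), but SF3A1 passed without everolimus 4 (limma adjusted p = 0.0282) and SF3B5 without everolimus 2 (limma adjusted p = 0.015).

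Among the snRNP protein genes the values moved little, with a median of -0.01. Of 12 tested, 1 was higher (8.33%) and 2 lower (16.7%), against 27.8% and 27.4% of all genes. The 3 that passed were all genes of the Sm ring, and each had overlapping groups. SNRPB, which encodes Sm B, had 4701, 4832, 4729.7, 4304 and 4719 units with everolimus, against 3989 to 4562 with a median of 4224 in the controls. Everolimus 4 lay within the controls and the other 4 above them, with a log2 fold change of 0.13 ± 0.04 (SE, limma adjusted p = 0.012). The SNRPB call was lost with quantile normalization (0.07, limma adjusted p = 0.108) and within the second library set, where it was 0.06 (limma adjusted p = 0.444), against 0.23 in the first. SNRPG, for Sm G, had 1224, 1215, 1082, 975 and 1042 units with everolimus, against 1122 to 1339 with a median of 1271 in the controls. SNRPG moved with the library set as well, since the second set was lower by 0.20 on the log2 scale (limma adjusted p = 0.0109). With the set in the model, SNRPG kept its everolimus call. Its log2 fold change of -0.17 ± 0.07 (SE, limma adjusted p = 0.0441) was the only call that leaving out 1 library could end. It was lost within the first library set (-0.10, limma adjusted p = 0.112), with no filter on low values (limma adjusted p = 0.0584), with no intensity trend (limma adjusted p = 0.0691), and without everolimus 3, 4 or 5 or control 1, 2, 3 or 6 (-0.16 to -0.12, limma adjusted p = 0.0727 to 0.124). Processed copies of SNRPG exist elsewhere in the genome, and how reads were shared with them is not given in the sources used here.

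SNRPN, which encodes the Sm N protein that can stand in for Sm B and lies on transcripts shared with SNURF, had 719.7, 744, 701, 654 and 739.9 units with everolimus, against 707 to 847 with a median of 805 in the controls. The lowest control lay among the treated libraries, and the log2 fold change was -0.16 ± 0.05 (SE, limma adjusted p = 0.0139). SNRPN passed in neither library set alone (limma adjusted p = 0.0545 and 0.109). The other Sm genes, SNRPD1, SNRPD2, SNRPD3, SNRPE and SNRPF, lay between -0.05 and 0.04 and did not pass. The genes specific to the U1 particle (SNRPA and SNRPC) and to the U2 particle (SNRPA1 and SNRPB2) lay between -0.06 and 0.03. None of these 4 passed in limma, and none had an unadjusted p under 0.05.

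**Figure D4:**
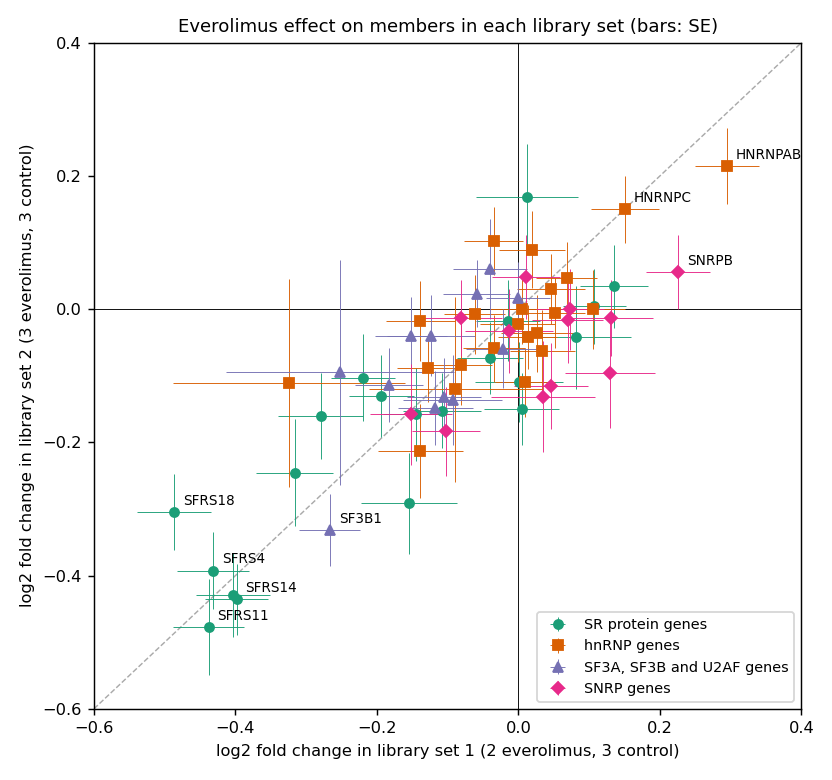
Log2 fold change, everolimus over control, of the 66 tested genes within the first library set (x axis, 2 everolimus and 3 control libraries) and the second (y axis, 3 and 3); bars are SE and the dashed line marks equal values. The largest falls, among them SFRS11 at -0.44 and -0.48, lie at the lower left in both sets.

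The everolimus difference was read in each library set apart. All 23 called genes had the same sign in both sets, as had 6990 of the 6997 genes called over all genes. The fit over all libraries partly fixes this property. In the first set 4 genes were higher and 15 lower (6.06% and 22.7%, against 24.0% and 19.3% of all genes), and in the second 2 were higher and 13 lower (3.03% and 19.7%, against 21.1% and 22.5%). In either direction that made 28.8% and 22.7% of the 66, against 43.3% and 43.7% of all genes. A test of the difference between the sets called 0 of the 66 genes and 0 of 12668 in limma, with 4 and 783 (6.18%) at an unadjusted p under 0.05. The set itself was called for 4 of the 66 genes, against 3.95% of all genes. These were HNRNPA1L2, HNRNPA1, SF3A2 and SNRPG.

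HNRNPA1L2, a near-copy of HNRNPA1 without introns, differed far more between the library sets than between treatments. It had 4438 and 4528 units in everolimus 1 and 2 and 2160.4, 1955 and 2097 in everolimus 3 to 5, against 4264 to 4579 in controls 1 to 3 and 1878 to 2001 in controls 4 to 6. The sets were separated within each group, and the groups overlapped. The second set was lower by 1.15 on the log2 scale with treatment in the model (limma adjusted p = 5.3e-13), and the everolimus fold change was -0.06 ± 0.31 (SE, limma adjusted p = 0.891) without the set and 0.06 ± 0.04 with it (limma adjusted p = 0.188). HNRNPA1 itself was lower in the second set by 0.17 (limma adjusted p = 0.0185). HNRNPA1L2 stood at 57.7% to 60.0% of HNRNPA1 in the first set and at 28.2% to 31.7% in the second. Reads that fit both genes are divided by estimation, so the level of each is uncertain, and the part of that division in the set difference was not tested.

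**Figure D5:**
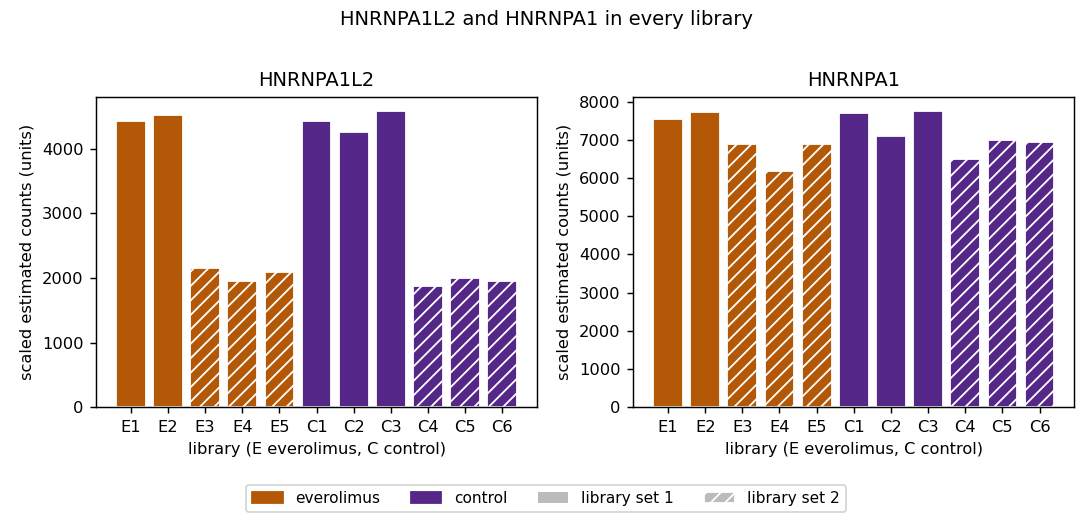
Scaled estimated counts (units, axes from 0) of HNRNPA1L2 and HNRNPA1 in each library, everolimus (E) left and control (C) right, with the second library set hatched. HNRNPA1L2 is between 4264 and 4579 units in the first set and between 1878 and 2160.4 in the second, in both treatments.

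Other spliceosome and splicing genes, from 9 lists outside these symbols, were lower more often than higher: 59 of 140 tested were lower (42.1%), 14 were higher (10.0%) and the median was -0.07, against 27.4%, 27.8% and -0.01 over all genes. At these shares of all genes, the counts of the smaller lists below, such as 2 of 7 or 3 of 12 lower, lie near the background. Among 15 SR-related proteins and SR protein kinases, 2 were higher and 7 lower. SRPK1, a kinase that phosphorylates SR proteins, was at 2347 ± 97.2 units with everolimus and 1518 ± 92.4 in the controls (SD, n = 5 and 6), a log2 fold change of 0.63 ± 0.04 (SE, limma adjusted p = 2.5e-08). The lowest treated library, 2243, lay above the highest control, 1615. PRPF4B, another kinase of the spliceosome, was at 1265 ± 65.2 units with everolimus and 1766 ± 94.1 in the controls, a log2 fold change of -0.48 (limma adjusted p = 4.29e-07).

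Of 17 further U1 and U2 particle proteins, 11 were lower (64.7%) and 0 higher in limma, against 27.4% and 27.8% of all genes. At an unadjusted p under 0.05, 13 were lower and 1 higher (all genes: 30.0% lower and 29.9% higher). LUC7L3, a U1-associated protein, was at 2101 ± 109 units with everolimus and 2910.5 ± 106 in the controls (-0.47, limma adjusted p = 1.21e-07). Of 17 proteins of U5 and of the U4/U6.U5 particle, 7 were lower (41.2%) and 0 higher, with 7 and 1 at an unadjusted p under 0.05. SNRNP40, a U5 protein, fell by 0.58 on the log2 scale (limma adjusted p = 4.45e-08), the largest fall over the 9 lists. LSM proteins form a ring on U6 and, with LSM1, a cytoplasmic ring for mRNA decay. Of 7 tested, 2 were lower (28.6%, near the share of all genes) and 0 higher, with 3 and 0 at an unadjusted p under 0.05. The count was 1 without control 3, 4 or 5 or everolimus 1, 3 or 4, and LSM7, the other gene called, had a limma adjusted p of 0.0445. LSM1 itself fell by 0.22 (limma adjusted p = 0.00501), a call lost within the first library set (limma adjusted p = 0.0763). Of 8 minor spliceosome proteins, 3 were lower (37.5%) and 0 higher, the same as at an unadjusted p under 0.05. SNRNP48 stood at -0.36 (limma adjusted p = 6.48e-05).

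In the lists that follow, genes passed in both directions. Over all genes the shares were 27.8% higher and 27.4% lower. Of 24 proteins of the PRPF19 complex and the catalytic steps, 3 were higher (12.5%) and 9 lower (37.5%). SLU7, which helps to choose the 3′ splice site, stood at 0.40 (limma adjusted p = 2.76e-06) and PLRG1, a core subunit, at -0.49 (limma adjusted p = 3.74e-07). Of 12 tested genes for the SMN complex and Sm protein assembly, 1 was higher (8.33%) and 3 lower (25.0%). That share lower was near that of all genes. CLNS1A, which holds Sm proteins before assembly, stood at 0.20 (limma adjusted p = 0.000753), and GEMIN6, an SMN complex subunit, at -0.29 (limma adjusted p = 0.0015), which the first library set alone did not call (limma adjusted p = 0.0766). In the exon junction complex list, 2 of 10 were higher and 5 lower, with CASC3, a core component, at 0.24 and ACIN1, an associated SR-like protein, at -0.31 (limma adjusted p = 5.88e-05 and 6.63e-07). Of 30 other splicing regulators tested, 6 were higher and 12 lower. ROD1 (PTBP3), a paralog of PTBP1, was at 8383 ± 369 units with everolimus and 5773 ± 427 in the controls (SD, n = 5 and 6), at 0.54 (limma adjusted p = 4.72e-07). TIA1, which promotes weak 5′ splice sites, was at 989 ± 99.4 units with everolimus and 1439 ± 202 in the controls, at -0.53 (limma adjusted p = 0.000196).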

How the data were processed

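Per the labels' protocols, 786-0 cells grew in DMEM, and their RNA (Qiagen RNeasy) went into TruSeq stranded mRNA libraries. The authors deposited 1 table of 20500 entries and 11 sample columns, as a scaled signal per gene. The submitters' processing notes name RSEM, which estimates read counts, with SAMtools, Picard 1.64 and the build hg19. Not given in the sources used here are the aligner, the annotation and the use of strand. Low values were multiples of a step per library, the value of 1 read, with 89.4% to 94.0% whole within 0.1 reads, which gave the estimated reads and, at its gap, the library sets. Because the rest were fractional, no count model was used. A count of 3 reads was worth 0.92 to 3.15 units, a floor that covers counting error only.

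Groups and replicate numbers came from the sample titles. Genes were tested on log2(value + 1) in limma 3.58.1 (R 4.3.3), with its variance trend, where they had at least 10 units in at least 5 of 11 libraries, with p-values two-sided and adjusted by Benjamini and Hochberg over all 12668 genes. It was tested on simulated data. Fold changes on that scale understate the change of low genes. The members, lists and rules were chosen with earlier results of these data known. Named genes were, per class, the 3 largest rises and falls that passed and the gene with the highest mean, and per list the largest of each. LSM8, searched for by that name, was not analysed here. RefSeq promoter windows reach from 250 bases before to 50 after the gene start, and motifs were counted only in the 250 bases before it. Alternatives changed the scaling, filter, pseudocount, variance prior, depth, library set and replicates.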

Additional observations from a re-analysis of the deposited data

Results flagged for a closer look

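In 8 of 132 groups of libraries (66 genes, everolimus and control), 1 library stood apart from the others by Dixon's test, and chance alone gives about 1 in 20. Among the everolimus libraries, HNRNPU was highest in library 3 at 14149 units, against 13179 to 13447 in the other 4. SF3B2 was lowest in everolimus 1 at 4094 units, against 4235 to 4279. SFRS5 was lowest in everolimus 4 at 1941 units, against 2092 to 2138, and SNRPB was lowest in the same library at 4304 units, against 4701 to 4832. Among the controls, SFRS2IP was lowest in control 4 at 1978 units, against 2256 to 2316 in the other 5, and SFRS8 was highest in that library at 912 units, against 771 to 823. HNRNPUL1 was lowest in control 6 at 4802 units, against 5005 to 5055, and SF3B5 was highest in control 3 at 1219.8 units, against 1036 to 1103. The calls of SFRS5, SFRS2IP, SFRS8 and SNRPB held when any 1 library was left out.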

How the results depend on the processing

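The calls of 8 genes held under all 24 alternatives: HNRNPAB, higher, and SFRS4, SFRS8, SFRS11, SFRS12, SFRS14, SFRS18 and SF3B1, lower. With 1 library left out, 22 to 26 of the 66 genes were called (33.3% to 39.4%), against 6431 to 7104 of 12668 genes (50.8% to 56.1%). By class, 12 to 13 SR, 4 to 6 hnRNP, 4 to 5 SF3A, SF3B and U2AF and 2 to 3 SNRP genes were called. The other lists gave 65 to 74 of 140. Quantile normalization called 33 of the 66 genes (50%), 1 higher and 32 lower, among them 12 hnRNP genes. Over all genes it called 7281 (57.5%), 3246 higher and 4035 lower. HNRNPK, at 0.00 and not called with the values as deposited, was called lower at -0.10 with quantile normalization. Thinning to equal depth called 7 of 22 hnRNP genes (31.8%, against 52.7% of all genes). The second library set alone gave 15 genes (22.7%, against 43.7% of all genes), of which 2 were SF3A, SF3B and U2AF and 1 SNRP. The first set alone gave 1 SNRP gene (8.33% of that class, against 43.3% of all genes). These sets hold fewer samples; the cause of the scaling changes was not tested. Same-numbered samples did not pair (correlations of deviations -0.508 to 0.603), and not every sample correlated best with its own number. With the replicate number as a block, 20 genes were called (30.3%), 2 higher and 18 lower, 1 of them an SNRP gene. Over all genes the block gave 6271 calls (49.5%). SFRS1, SNRPB and SNRPN were not called with the block (limma adjusted p = 0.0518 to 0.0555). The smallest library, a control, had 14230651 estimated reads, which limits the lowest genes.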
